A study of Mus musculus with 18 samples.

Results

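The irradiation by DL1 interaction asks, gene by gene, whether the difference between cells of irradiated and control mice was the same with and without DL1 in the culture. It was computed as the irradiated minus control difference with DL1, minus the irradiated minus control difference without DL1, and it rests on the 12 cultured libraries of the 18 in the series. Genes with a mean of at least 1 FPKM (sequenced fragments corrected for transcript length and for the library's size) over these 12 libraries were tested, 12025 of 25629 rows of the cultured table. All 12 libraries came from LSK cells, the bone marrow fraction that lacks lineage markers and carries Sca-1 and Kit and holds the blood stem cells and earliest progenitors. The mice were C57Bl/6. Irradiated mice had received 2.5 Gy from a caesium-137 source and had at least 9 weeks to recover, whereas control mice are described as normal. Each culture was started from 200 LSK cells of 1 mouse and was kept for 6 days with mouse SCF and human Flt3L, IL-11 and IL-6, without DL1 (3 control and 3 irradiated) or with DL1 (3 control and 3 irradiated), and LSK cells were then sorted again for RNA. The labels do not spell out DL1, the usual short name of the Notch ligand Delta-like 1, nor say how it was presented. For control samples 1 label field names irradiated cells, whereas titles and conditions say control, and the latter were followed.

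Notch receptors are cut when a ligand on a neighbouring surface binds them, and the freed intracellular part joins the DNA-binding protein RBPJ to switch on genes such as Hes1, Nrarp and Dtx1. In blood progenitors this signal favours T lineage fate and holds back myeloid maturation. The C/EBP factors act in the other direction, since C/EBP-alpha and C/EBP-epsilon drive granulocyte differentiation from progenitors. Ionizing radiation leaves lasting effects on stem and progenitor cells, which is the setting of the comparison.

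Of the 12025 genes, 9 passed (0.0748%), 3 with a positive (0.0249%) and 6 with a negative interaction (0.0499%). The test was limma with a mean-variance trend on log2(FPKM + 1), and genes passed at a Benjamini-Hochberg adjusted p under 0.05. Counts of genes that rose, fell or changed, here and below, are of genes that passed in this way. At an unadjusted p under 0.05 there were 1256 of the 12025, the share to set beside the counts of lists below. The 9 were Pf4, Ppbp, Cd63, Sgsh, Gas6, Myl10, Aqp9, Hpgd and Ap1m2. For each of them the change without DL1 passed on its own and the interaction had the opposite sign. The interaction subtracts that change, which favours opposite signs, and 9509 of all 12025 genes tested had them. That count of 9 depended on single libraries. It was 0 without control replicate 1, without irradiated replicate 2 or without irradiated replicate 2 with DL1 (1097, 1083 and 1119 at an unadjusted p under 0.05), between 1 and 7 without any 1 of 8 others, and 192 (100 positive, 92 negative, all of the 9 among them) without irradiated replicate 3. Under the fit with all 12 libraries, the 95% interval of the interaction lay within 0.5 log2 units on either side of 0 for 9853 genes (81.9%). The p-values measure the spread between cultures of single mice.

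The cells kept the transcripts that define the sort. Kit was between 31.6 and 40.2 FPKM and Ly6a, which encodes Sca-1, between 431.5 and 628.0 FPKM in the 12 libraries. The FPKM of a library summed to between 544392 and 576680. Relative depth, estimated from the steps between low values, lay between 0.756 and 1.09 of control replicate 1, except for irradiated replicate 2 with DL1 at 0.488. That library also held the stromal matrix genes Col1a1, Col1a2, Col3a1 and Sparc at 2.82, 3.34, 1.25 and 2.11 FPKM. The highest values in any other library were 0.247, 0.286, 0.272 and 0.512 FPKM. Where these transcripts came from was not tested. Correlations of log2 values were between 0.988 and 0.997 within groups. Because RNA was taken from bulk samples, fewer cells of a type and less RNA per cell cannot be told apart.

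Of the 9 genes, those with the largest interactions, Ppbp and Pf4, are neighbours on mouse chromosome 5 with 0 genes listed between them, and both encode chemokines stored in platelet granules. The 250 bases before the start of each are shown with those of Cd63, from RefSeq (GRCm38.p6, all on the plus strand), because the experiment combines a Notch ligand with cells in which Cebpa and Cebpe rose. Both strands were searched for 3 short motifs, and capitals mark a match. For the Notch partner RBPJ the letters were TGGGAA. For C/EBP factors they were TTGCNNAA, which leaves both middle positions free. For GATA factors, which drive megakaryocyte and mast cell genes, the letters searched were AGATAA. Pf4 is at chr5:90772185-90772434, Ppbp at chr5:90768268-90768517 and Cd63 at chr10:128909095-128909344.
Pf4: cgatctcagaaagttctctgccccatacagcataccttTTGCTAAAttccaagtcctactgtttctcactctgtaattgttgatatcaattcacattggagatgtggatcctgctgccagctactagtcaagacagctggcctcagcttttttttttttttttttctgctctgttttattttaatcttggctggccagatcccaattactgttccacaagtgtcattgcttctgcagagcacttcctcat
Ppbp: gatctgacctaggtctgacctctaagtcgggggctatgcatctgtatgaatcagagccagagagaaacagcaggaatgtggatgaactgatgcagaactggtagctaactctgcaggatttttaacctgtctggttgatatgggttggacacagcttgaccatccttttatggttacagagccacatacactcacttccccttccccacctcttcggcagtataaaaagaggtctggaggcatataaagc
Cd63: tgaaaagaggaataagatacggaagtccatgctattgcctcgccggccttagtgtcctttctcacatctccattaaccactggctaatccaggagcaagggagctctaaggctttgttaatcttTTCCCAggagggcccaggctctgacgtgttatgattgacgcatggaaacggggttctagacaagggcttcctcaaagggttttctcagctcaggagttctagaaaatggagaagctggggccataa
The Pf4 window holds 1 C/EBP match, the Cd63 window 1 RBPJ match and the Ppbp window neither, and no matches overlap in these windows. Over the 9 genes there were 12 windows, of which 4 held an RBPJ, 2 a C/EBP and 1 a GATA match. Of 10990 windows of the same length from tested genes, 20.3% held the RBPJ letters, 7.82% the C/EBP letters and 6.04% the GATA letters. A match describes these letters only.

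Pf4 encodes platelet factor 4. It was at 68.3, 58.7 and 79.8 FPKM in control, 201, 186 and 145 in irradiated, 76.9, 74.0 and 68.8 in control with DL1 and 43.1, 47.5 and 61.2 in irradiated with DL1 libraries. The irradiated libraries lay above the controls without DL1 and below them with it, with no overlap in either arm. The change was 1.35 without DL1 (adjusted p = 1.57e-04) and -0.54 with DL1 (adjusted p = 0.0702) on the log2(FPKM + 1) scale, and the interaction was -1.89 ± 0.20 (SE, adjusted p = 0.00958, limma). In mean FPKM this is a 2.57-fold and a 0.691-fold level of irradiated against control.

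Ppbp encodes the chemokine CXCL7. Its values were 17.8, 12.3 and 19.9 FPKM in control, 59.9, 55.3 and 38.3 in irradiated, 12.7, 14.7 and 17.0 in control with DL1 and 9.09, 7.58 and 11.5 in irradiated with DL1 libraries. As with Pf4, irradiated libraries lay above the controls without DL1 and below them with it, without overlap in either arm. The interaction was -2.17 ± 0.28 (adjusted p = 0.0143), made of a change of 1.56 without DL1 (adjusted p = 4.01e-04) and of -0.61 with DL1 (adjusted p = 0.124).

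Of 24 megakaryocyte and platelet genes listed, 13 were tested, 11 of them with a negative interaction (median -0.19, against 0.02 over all genes tested). Pf4 and Ppbp were the 2 that passed. Itga2b, the integrin chain of the fibrinogen receptor, rose without DL1 (0.63, adjusted p = 0.00121) and had an interaction of -0.73 ± 0.14 (adjusted p = 0.102), and F2r, a thrombin receptor, had -0.39 ± 0.14 (adjusted p = 0.350). The 13 genes summed to between 449 and 468 FPKM in control, 743 and 960 in irradiated, 351 and 375 in control with DL1 and 394 and 420 in irradiated with DL1 libraries. Several defining genes of the lineage were below the minimum for testing, with Gp9 between 0.345 and 1.55, Gp5 between 0.211 and 0.869 and Gp6 between 0 and 0.171 FPKM. Vwf, which encodes von Willebrand factor and was also below it, was at 0.937, 0.6999 and 1.05 in control, 2.83, 2.09 and 1.57 in irradiated and between 0.196 and 0.375 in the 6 libraries with DL1. Irradiated libraries were thus above controls for Vwf without DL1, and the groups overlapped with DL1. The part of megakaryocyte lineage cells in the Pf4 and Ppbp results was not tested.

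**Figure D1:**
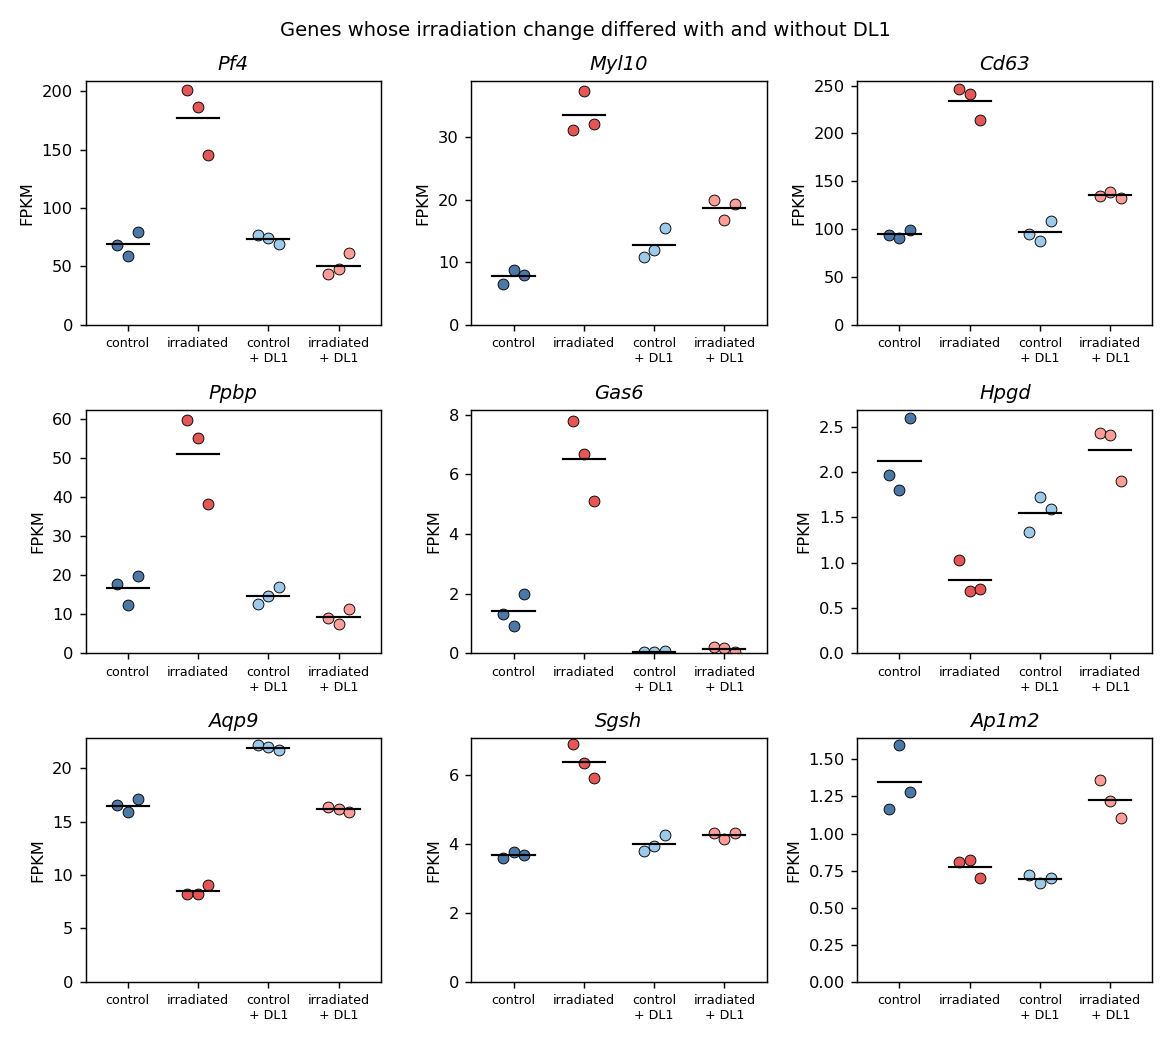
FPKM of the 9 genes that passed, in each of the 12 cultured libraries. Points are libraries in the order of replicates 1 to 3, bars are group means, and each panel has its own axis from 0. The group means of Pf4 and Ppbp were highest in irradiated cells without DL1 and lowest in irradiated cells with DL1, and Ap1m2 was lower in irradiated libraries without DL1 and higher with it.

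Cd63 encodes a tetraspanin of late endosomes, lysosomes and secretory granules, and is used as a marker of basophil and platelet granule release. Its FPKM were 94.0, 91.1 and 98.6 in control, 247, 241 and 214 in irradiated, 94.6, 88.0 and 108 in control with DL1 and 134, 139 and 133 in irradiated with DL1 libraries. Irradiated libraries lay above controls in both arms, and the gap was smaller with DL1. Irradiated cells rose by 1.296 without DL1 (adjusted p = 3.05e-06) and by 0.48 with DL1 (adjusted p = 0.0068), a difference of -0.81 ± 0.10 (adjusted p = 0.0143). Without DL1 the irradiated mean was 2.47 times the control mean, and with DL1 1.4 times.

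Sgsh encodes a lysosomal enzyme that removes sulfate groups from heparan sulfate. It was at 3.58, 3.77 and 3.67 FPKM in control, 6.91, 6.35 and 5.91 in irradiated, 3.79, 3.93 and 4.25 in control with DL1 and 4.31, 4.14 and 4.32 in irradiated with DL1 libraries. The groups were apart without DL1 and overlapped with it. The rise of 0.66 without DL1 (adjusted p = 1.09e-04) stood against 0.08 with DL1 (adjusted p = 0.554), and the interaction was -0.58 ± 0.09 (adjusted p = 0.0428).

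Around these genes, 25 of 26 listed lysosome genes were tested and 23 had a negative interaction (median -0.22, range -0.65 to 0.13). None of them passed in limma, and 9 had an unadjusted p under 0.05, as did 1256 of all 12025 genes tested. Without DL1 22 of the 25 rose in irradiated cells, and with DL1 2 did, against 13.8% and 2.5% of all genes tested that rose. By sign all 25 were higher in both arms (medians 0.57 without and 0.26 with DL1). The 2 became 11 without irradiated replicate 1 or 3, 4 without control replicate 2 or 3, 1 without irradiated replicate 3 with DL1 and 0 without any 1 of the other 5 libraries with DL1. The 4 with the smallest p were the proteases Ctsd, Ctsb and Ctsl and the cholesterol transporter Npc1. Ctsd was at 263, 230 and 288 FPKM in control, 522, 452 and 387 in irradiated, 157, 162 and 156 in control with DL1 and 179, 185 and 180 in irradiated with DL1 libraries. Its interaction was -0.60 ± 0.14 (adjusted p = 0.150) and became -0.71 with an adjusted p of 0.0242 without irradiated replicate 3, its lowest irradiated library without DL1.

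Gas6 encodes a secreted ligand of the TAM receptors, by which macrophages take up dying cells. Its FPKM were 1.33, 0.927 and 1.99 in control and 7.78, 6.67 and 5.12 in irradiated libraries without DL1, and between 0.0288 and 0.207 in all 6 libraries with DL1. Thus Gas6 was near 0 wherever DL1 was present, and the groups overlapped there. The rise was 1.65 without DL1 (adjusted p = 9.77e-05) and 0.12 with DL1 (adjusted p = 0.704), and the interaction was -1.53 ± 0.22 (adjusted p = 0.0321). In mean FPKM irradiated cells held 4.6 times the control level without DL1 and 2.83 times with DL1, and with a pseudocount of 0.1 the interaction was -1.52 and did not pass (adjusted p = 0.282).

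The TAM receptor gene Mertk had a similar layout, at 2.02, 1.39 and 2.76 FPKM in control, 7.15, 5.58 and 4.03 in irradiated and between 0.167 and 0.441 in the 6 libraries with DL1 (interaction -0.94 ± 0.25, adjusted p = 0.205). Fcrls, an Fc receptor-like gene of macrophages and microglia, was at 2.96, 1.97 and 4.72 in control and 20.1, 17.5 and 10.6 in irradiated libraries, and between 0.283 and 0.828 with DL1 (-1.76 ± 0.33, adjusted p = 0.0895). Irradiated libraries were high for both genes without DL1, and with DL1 the values were under 1 FPKM, where the added 1 compresses differences.

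Among monocyte and macrophage genes, 31 of 34 were tested and 23 had a negative interaction (median -0.27, range -1.76 to 1.26). None passed in limma, and 13 had an unadjusted p under 0.05 (1256 of all 12025 genes tested did). Without irradiated replicate 3, 7 passed, as did 192 of all 12025 genes tested. In irradiated cells 24 of the 31 rose without DL1 and 12 with DL1, where 13.8% and 2.5% of all genes tested rose, and none fell. By sign 29 were higher without DL1 and 30 with DL1. The 12 became 2 without control replicate 1 or irradiated replicate 2 with DL1, 3 without control replicate 3 or irradiated replicate 1 with DL1, 7 without irradiated replicate 3 with DL1 and between 9 and 16 without any 1 of the other 7 libraries. It was 7 with a pseudocount of 5 and 2 on a square root scale. DL1 itself lowered 26 of the 31 in control and 28 in irradiated cultures, against 12.3% and 17% of all genes tested that fell. Their summed FPKM were between 3274 and 4516 in control, 6032 and 8885 in irradiated, 957 and 1259 in control with DL1 and 1589 and 2035 in irradiated with DL1 libraries. The median interaction was -0.11 with a pseudocount of 0.1 and -0.38 with 5. It was -0.48 without irradiated replicate 3, -0.44 without control replicate 3, -0.11 without control replicate 2 and -0.10 without irradiated replicate 1. Ly6c1, a surface antigen of monocytes, was at 63.9, 57.9 and 65.0 in control, 122, 114 and 101 in irradiated, 45.0, 45.9 and 44.7 in control with DL1 and 63.2, 67.1 and 54.2 in irradiated with DL1 libraries. It rose in both arms (0.84 and 0.43, adjusted p = 1.09e-04 and 0.0163), and its interaction was -0.41 ± 0.12 (adjusted p = 0.248). Ly86, a partner of the Toll-like receptor relative CD180, had the positive end of the range (1.26 ± 0.36, adjusted p = 0.248). The part of macrophage-lineage cells in the Gas6, Cd63 and Sgsh results was not tested.

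Mast cell, basophil and eosinophil genes, of which Cd63 is a member, had a median interaction of -0.44, with 17 of 20 tested genes negative. The median was -0.70 without control replicate 1 with DL1 and -0.19 without control replicate 3 with DL1. In this list 8 of 20 rose without DL1 and 2 with DL1 (between 1 and 3 when any 1 library was left out), where 13.8% and 2.5% of all genes tested rose. Cd63 was the 1 that passed with a negative interaction, as 0.0499% of all genes tested did. Hdc, which makes histamine, was at 8.27, 8.001 and 8.78 FPKM in control, 15.5, 18.1 and 15.8 in irradiated, 10.0, 11.1 and 11.7 in control with DL1 and 15.6, 13.4 and 13.5 in irradiated with DL1 libraries. Irradiated libraries were higher in both arms, and the interaction was -0.56 ± 0.11 (adjusted p = 0.106). The 20 genes summed to between 405 and 440 FPKM in control, 626 and 703 in irradiated, 435 and 845 in control with DL1 and 569 and 659 in irradiated with DL1 libraries, so that the groups overlapped with DL1.

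Myl10 encodes a myosin light chain, and its role in progenitors is not described here. It was at 6.51, 8.80 and 8.01 FPKM in control, 31.1, 37.4 and 32.1 in irradiated, 10.9, 11.9 and 15.4 in control with DL1 and 19.9, 16.7 and 19.3 in irradiated with DL1 libraries. The irradiated libraries were higher in both arms. The rise was 1.98 without DL1 (adjusted p = 8.96e-06) and 0.53 with DL1 (adjusted p = 0.0461), with an interaction of -1.46 ± 0.18 (adjusted p = 0.0143).

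The 3 genes with a positive interaction were lower in irradiated cells without DL1. Aqp9, a channel for water and glycerol found in myeloid cells and liver, was at 16.6, 15.9 and 17.1 FPKM in control, 8.21, 8.24 and 9.09 in irradiated, 22.2, 22.01 and 21.7 in control with DL1 and 16.4, 16.2 and 15.9 in irradiated with DL1 libraries. It fell in both arms, by 0.88 without DL1 (adjusted p = 3.05e-06) and by 0.42 with DL1 (adjusted p = 0.00245), and the interaction was 0.46 ± 0.07 (adjusted p = 0.0398). DL1 itself changed 26.2% of all genes tested in control and 41.4% in irradiated cultures. It raised Aqp9 in control (0.39, adjusted p = 1.00e-04) and in irradiated cultures (0.85, adjusted p = 2.74e-07).

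Hpgd encodes the dehydrogenase that inactivates prostaglandin E2. Its values were 1.97, 1.81 and 2.60 FPKM in control, 1.03, 0.690 and 0.709 in irradiated, 1.34, 1.73 and 1.59 in control with DL1 and 2.44, 2.41 and 1.91 in irradiated with DL1 libraries. Irradiated libraries were below controls without DL1 and above them with DL1. The change was -0.78 without DL1 (adjusted p = 8.88e-04) and 0.35 with DL1 (adjusted p = 0.139), and the interaction was 1.13 ± 0.16 (adjusted p = 0.0321).

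Ap1m2 encodes a subunit of a clathrin adaptor best known from epithelial cells. It was at 1.16, 1.598 and 1.28 FPKM in control, 0.807, 0.822 and 0.703 in irradiated, 0.718, 0.663 and 0.703 in control with DL1 and 1.36, 1.22 and 1.11 in irradiated with DL1 libraries. Of the 9 genes, it was the 1 whose change passed in both arms in opposite directions, a fall of 0.40 without DL1 (adjusted p = 0.00659) and a rise of 0.39 with DL1 (adjusted p = 0.0325). The interaction was 0.79 ± 0.12 (adjusted p = 0.0428), at levels near the minimum for testing.

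How far the 9 calls held differed between genes. Leaving out each of the 12 libraries in turn, Pf4 passed in 9 fits and had adjusted p of 0.0578, 0.0567 and 0.0535 without control replicate 1, irradiated replicate 2 and irradiated replicate 2 with DL1. Myl10 passed in 8, failing without these 3 and without irradiated replicate 1 with DL1 (0.0519 to 0.0727). Ppbp passed in 6, failing without control replicate 1, irradiated replicate 2, control replicate 2 or 3 with DL1 and irradiated replicate 1 or 2 with DL1 (0.0535 to 0.0727). Cd63 passed in 5, failing without control replicate 1 or 2, irradiated replicate 2, control replicate 1 with DL1 and any 1 irradiated replicate with DL1 (0.0504 to 0.0727). Gas6 passed in 2 (without control replicate 3 or irradiated replicate 3), Hpgd in 2 (without irradiated replicate 1 or 3) and Aqp9, Sgsh and Ap1m2 in 1 each (without irradiated replicate 3), with adjusted p up to 0.117, 0.117, 0.144, 0.137 and 0.149. In these fits the interaction lay between -2.03 and -1.78 for Pf4, -1.55 and -1.32 for Myl10, -2.37 and -1.98 for Ppbp and -0.88 and -0.73 for Cd63. It lay between -1.69 and -1.37 for Gas6, 1.03 and 1.22 for Hpgd, 0.44 and 0.50 for Aqp9, -0.63 and -0.53 for Sgsh and 0.72 and 0.85 for Ap1m2. The fits share most of the libraries by which the genes were chosen, so these ranges cannot show whether the sizes are overstated. The next genes by p were Vat1, Smim24 and Lgals3bp at an adjusted p of 0.0609, chosen by rank after the values were seen.

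The irradiation change had the same sign with and without DL1 for 9200 of the 12025 genes (76.5%) and was smaller with DL1 for 69.6%. The 2 changes share no library. Their Pearson correlation across genes was 0.701, as a description of these libraries, since genes are not independent. The SD of the change across genes was 0.261 without DL1 and 0.180 with DL1, and the median absolute change was 0.133 and 0.082. Of the 3568 genes that changed without DL1 (29.7%), 95.1% had a smaller change with DL1, a share that this way of choosing favours. Of the 378 that changed with DL1 (3.14%), where the choice favours the opposite, 58.5% still had a smaller change with DL1 (47.7 to 72.2% when any 1 library was left out, 47.7% without irradiated replicate 3 with DL1 and 48.1% without irradiated replicate 1). There were 324 genes that changed in both arms, 323 of them in the same direction, and 54 that passed with DL1 alone. The count without DL1 was 1886 without control replicate 2 and 2192 without irradiated replicate 1. The count with DL1 was 705 and 605 without irradiated replicates 1 and 3 (which enter through the shared estimate of spread), and between 105 and 130 without control replicate 1 or 3 with DL1 or irradiated replicate 1 or 2 with DL1. Where a gene varies more in 1 arm, that shared estimate eases calls there and hinders them in the other arm. Counts of the 2 arms, also those of lists, carry this limit. Medians of single control libraries ran from -0.28 to 0.27 without and -0.07 to 0.11 with DL1 for macrophage genes. For mast cell genes they ran from -0.12 to 0.10 and from -0.23 to 0.34.

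**Figure D2:**
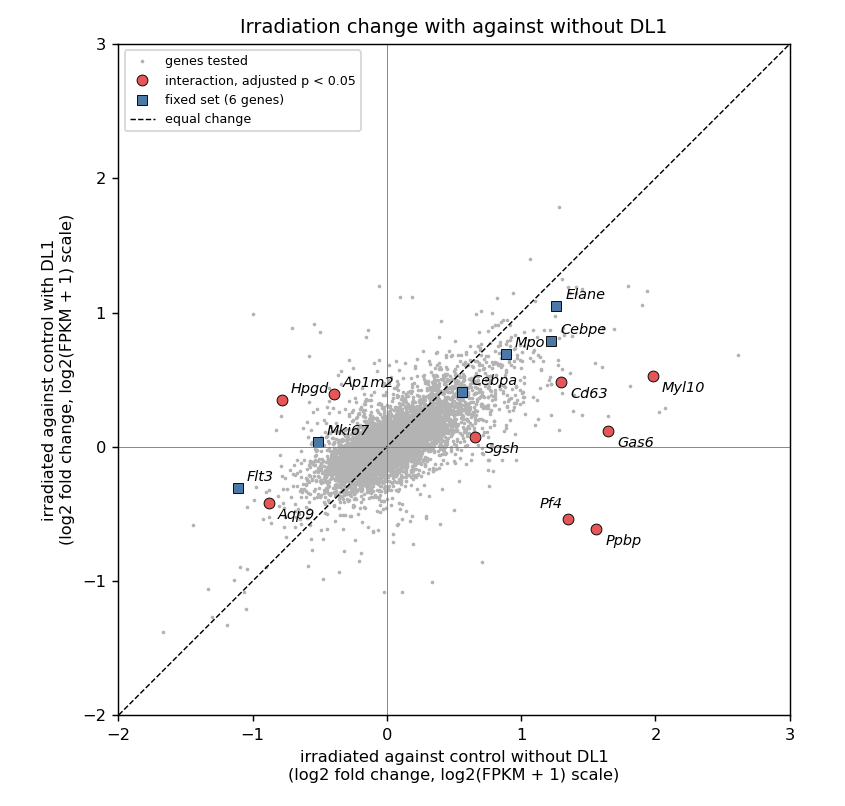
Irradiation change with DL1 (vertical) against the change without DL1 (horizontal) for the 12025 genes tested, both as log2 fold changes on the log2(FPKM + 1) scale. Red circles are the 9 genes that passed for the interaction, blue squares are 6 genes of a fixed set, and the dashed line marks equal change. Pf4 and Ppbp lie below 0 with DL1, while Elane, Mpo and Cebpa lie near the line.

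Genes of cell division showed the most even pattern. All 28 mitosis and spindle genes were tested and all 28 had a positive interaction (median 0.28, range 0.08 to 0.55, against 6557 positive of the 12025 genes tested). Of the 28, 25 fell in irradiated cells without DL1 and 0 changed with DL1 in limma, where 15.9% and 0.64% of all genes tested fell. Of all genes tested 3.14% changed with DL1, so a count of 0 among 28 is close to that share. By sign 23 of the 28 were lower with DL1 (median -0.05). None passed for the interaction, and 21 had an unadjusted p under 0.05 (1256 of all 12025 genes tested did). Without irradiated replicate 3, 13 passed, as did 192 of all 12025 genes tested. The count of 28 positive genes held in each of the 12 fits that left out a library, at pseudocounts of 0.1 and 5, on a square root scale and after median-ratio scaling.

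Mki67, the proliferation marker, was at 81.8, 84.8 and 71.2 FPKM in control, 51.1, 54.9 and 59.3 in irradiated, 95.2, 86.5 and 87.6 in control with DL1 and 90.6, 94.8 and 89.8 in irradiated with DL1 libraries. The irradiated libraries were lowest without DL1 and overlapped the controls with it. Its interaction was 0.55 ± 0.10 (adjusted p = 0.0872), with an adjusted p of 0.0242 without irradiated replicate 3 and of 0.0407 without control replicate 3. Nusap1, a spindle protein, was at 37.6, 34.6 and 35.4 in control, 25.7, 25.4 and 29.1 in irradiated, 41.2, 39.0 and 41.9 in control with DL1 and 40.5, 38.0 and 39.4 in irradiated with DL1 libraries (0.36 ± 0.08, adjusted p = 0.144). The spindle checkpoint kinase Bub1b had 0.39 ± 0.10 (adjusted p = 0.176) and the kinesin Cenpe 0.41 ± 0.10 (adjusted p = 0.176).

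DNA replication genes followed at a smaller size. All 28 were tested and all 28 were positive (median 0.13, range 0.05 to 0.27). Of these, 22 fell without DL1 and 0 changed with DL1, where 15.9% of all genes tested fell and 3.14% changed. A count of 0 among 28 is close to that last share, and by sign all 28 were lower with DL1 (median -0.11). None passed for the interaction, and 3 had an unadjusted p under 0.05, close to the share over all genes tested (1256 of 12025). The count of positive genes was between 25 and 28 when any 1 library was left out, and the median between 0.06 and 0.20. The number that fell without DL1 was between 8 and 26, with 14 without control replicate 1, 8 without control replicate 2 and 13 without irradiated replicate 1. Rrm2, a subunit of ribonucleotide reductase, was at 148, 156 and 144 FPKM in control, 104, 123 and 124 in irradiated, 157, 161 and 156 in control with DL1 and 150, 152 and 144 in irradiated with DL1 libraries. Its interaction was 0.27 ± 0.09 (adjusted p = 0.339). Of the G1 cyclin and kinase inhibitor genes, 19 of 22 were tested, with 14 positive and 5 negative (median 0.06, range -0.30 to 0.56). None passed and 5 had an unadjusted p under 0.05, against the same 1256 of 12025. The smallest p were those of the cyclin genes Ccnd1, with 0.56 ± 0.11 (adjusted p = 0.09995), and Ccne1, with 0.44 ± 0.10 (adjusted p = 0.151).

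Lymphoid priming genes were few, with 7 of 18 tested. Of these, 5 had a positive interaction (median 0.36) and 5 an unadjusted p under 0.05 (1256 of all 12025 genes tested did). Without DL1 4 fell and 1 rose, where 15.9% and 13.8% of all genes tested did. With DL1 0 of the 7 changed, where 3.14% of all genes did, and a count of 0 among 7 is close to that share. Flt3, the cytokine receptor of lymphoid-primed progenitors, was at 14.2, 13 and 16.3 FPKM in control, 7.27, 4.78 and 6.65 in irradiated, 26.9, 27.2 and 33.3 in control with DL1 and 25.2, 20.8 and 23.9 in irradiated with DL1 libraries. Irradiated libraries were below controls in both arms. The change was -1.11 without DL1 (adjusted p = 2.85e-04) and -0.31 with DL1 (adjusted p = 0.238), with an interaction of 0.80 ± 0.19 (95% interval 0.40 to 1.21, adjusted p = 0.158). Mef2c, a transcription factor of lymphoid priming, had 0.36 ± 0.08 (adjusted p = 0.140), Cd79b, a chain of the B cell receptor complex, 0.53 ± 0.13 (adjusted p = 0.182), and Satb1, a chromatin organizer, 0.36 ± 0.12 (adjusted p = 0.339).

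**Figure D3:**
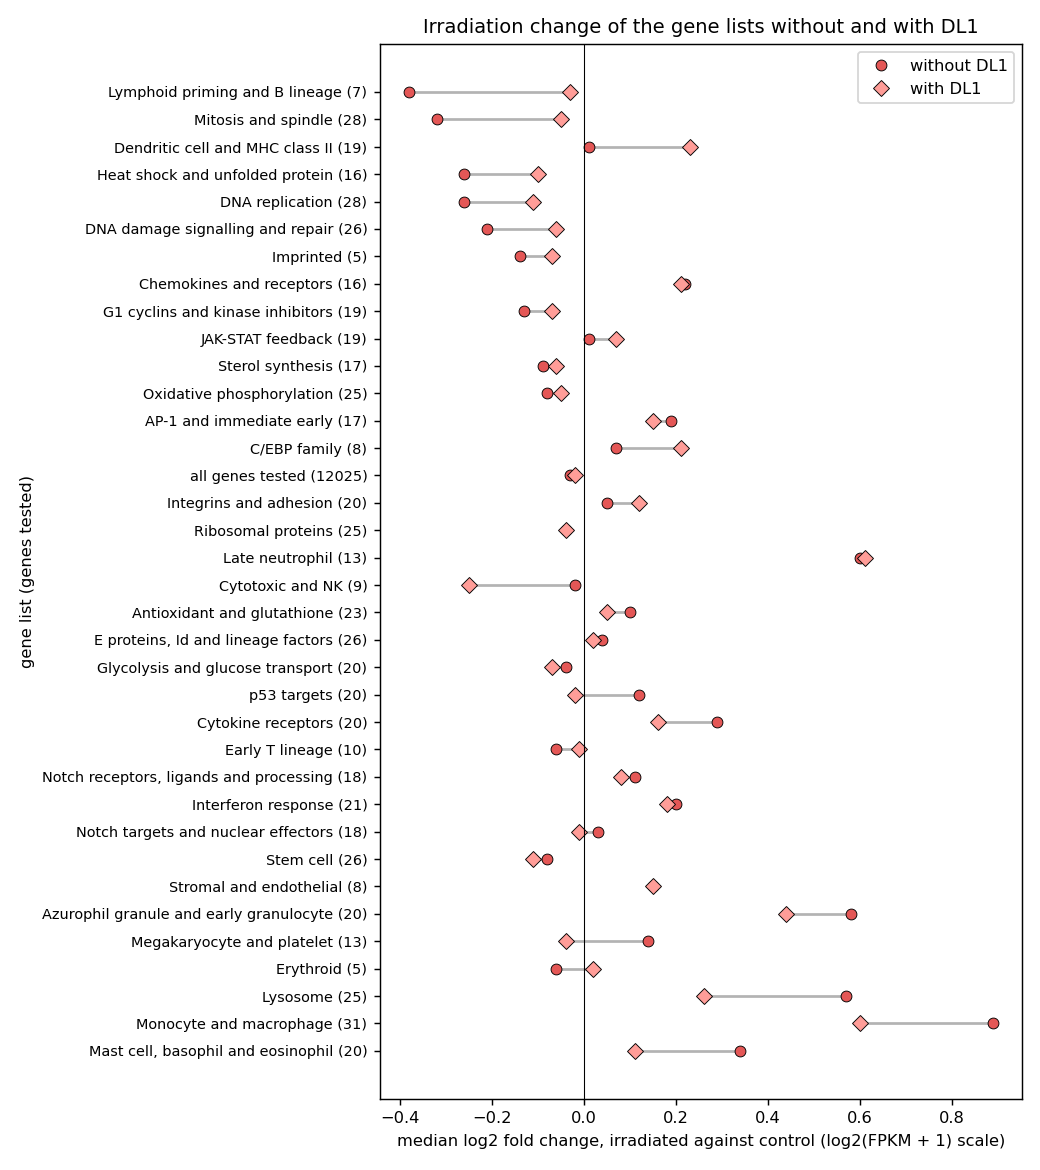
Median irradiation change of the tested members of each gene list without DL1 (circles) and with DL1 (diamonds), as log2 fold change on the log2(FPKM + 1) scale, ordered by the median interaction of the list. The mitosis list moved from -0.32 to -0.05 and the lysosome list from 0.57 to 0.26, while the late neutrophil list stayed at 0.60 and 0.61.

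Most azurophil granule genes rose in both arms. Of 20 azurophil granule and early granulocyte genes, 17 rose without DL1 and 14 with DL1, where 13.8% and 2.5% of all genes tested rose. The 14 became 9 without control replicate 3 or irradiated replicate 1 with DL1 and 8 without irradiated replicate 2 with DL1. The median interaction was -0.12 (15 of 20 negative). Elane, neutrophil elastase, was at 518, 538 and 473 FPKM in control, 1205, 1465 and 1032 in irradiated, 299, 301 and 369 in control with DL1 and 709, 767 and 543 in irradiated with DL1 libraries. Every irradiated library lay above every control of its arm. The rise was 1.26 without DL1 (adjusted p = 2.20e-04) and 1.05 with DL1 (adjusted p = 0.00450), and the interaction of -0.21 ± 0.20 had a 95% interval from -0.65 to 0.22. Mpo, myeloperoxidase, had -0.19 ± 0.14 (interval -0.50 to 0.12) between rises of 0.88 and 0.69 (adjusted p = 2.20e-04 and 0.00531). Nkg7, a granule membrane protein, had the list's smallest p (-0.90 ± 0.16, adjusted p = 0.0757).

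Late neutrophil genes had a median interaction of 0.00, with 7 of 13 tested genes positive, 8 that rose without DL1 and 7 that rose with DL1, where 13.8% and 2.5% of all genes tested rose. The 7 was between 4 (without irradiated replicate 2 with DL1) and 9 when any 1 library was left out, and the median between -0.21 and 0.09. Their secondary granule member Ngp was at 39.5, 39.2 and 48.9 FPKM in control, 127, 121 and 74.1 in irradiated, 7.43, 8.17 and 9.77 in control with DL1 and 34.0, 38.6 and 23.5 in irradiated with DL1 libraries. Irradiated libraries were higher in both arms although DL1 lowered the level in both. The rises were 1.28 and 1.78 (adjusted p = 0.00137 and 0.00245), and the interaction was 0.50 ± 0.29 (interval -0.14 to 1.14). Lcn2, an iron-sequestering granule protein, rose by 0.36 and 0.58 (adjusted p = 0.00107 and 8.82e-04), with an interaction of 0.23 ± 0.08 (adjusted p = 0.339).

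Of 9 C/EBP family genes 8 were tested, with a median interaction of 0.04. Cebpa was at 50.4, 55.3 and 49.5 FPKM in control, 73.1, 79.8 and 76.8 in irradiated, 44.0, 44.3 and 41.1 in control with DL1 and 50.1, 57.6 and 66.0 in irradiated with DL1 libraries. All irradiated libraries were above the controls of their arm. It rose by 0.56 without DL1 (adjusted p = 9.06e-04) and by 0.41 with DL1 (adjusted p = 0.0228), and the interaction was -0.15 ± 0.12 (interval -0.41 to 0.11, adjusted p = 0.686). Cebpe, which granulocytes need for their secondary granules, was at 13.1, 13.3 and 12.96 in control, 32.2, 37.7 and 26.8 in irradiated, 15.5, 13.1 and 15.7 in control with DL1 and 29.3, 30.3 and 20.1 in irradiated with DL1 libraries. Its rises were 1.22 and 0.78 (adjusted p = 2.85e-04 and 0.0146), with an interaction of -0.44 ± 0.20 (interval -0.88 to 0.01, adjusted p = 0.483).

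**Figure D4:**
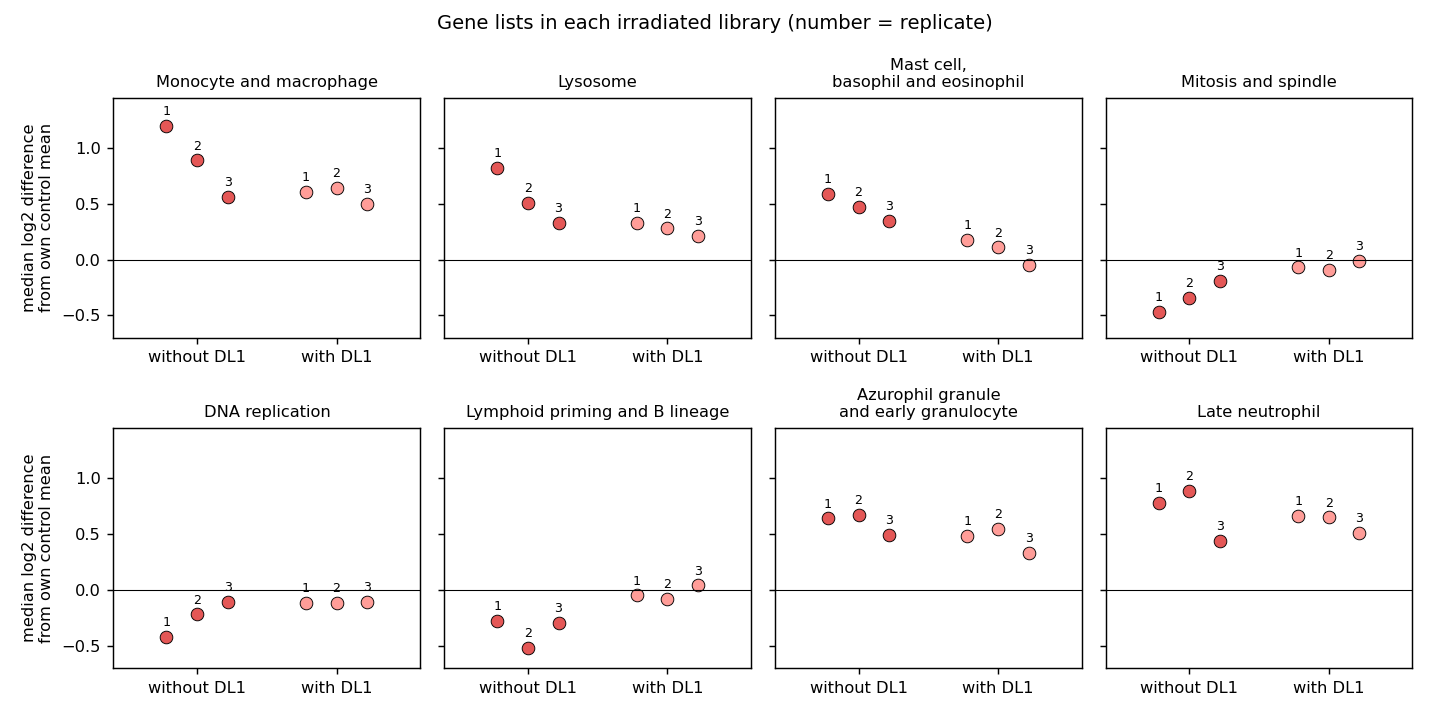
Median log2 difference of the tested members of 8 gene lists from the mean of the controls of the same arm, for each irradiated library. Numbers mark the replicate and the line is the control mean. Without DL1, irradiated replicate 3 was nearest to the controls for macrophage (0.56 against 1.2 and 0.89), lysosome (0.33 against 0.82 and 0.51) and mitosis genes (-0.19 against -0.47 and -0.34).

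Irradiated replicate 3 without DL1 thus stood closest to its controls in the lists shown there for macrophage, lysosome, mast cell, mitosis, DNA replication and both granulocyte lists, and lymphoid genes had -0.28, -0.52 and -0.30 in replicates 1 to 3. With DL1 the medians of irradiated replicates 1 to 3 were closer together for macrophage (0.61, 0.64 and 0.50), lysosome (0.33, 0.28 and 0.21) and mitosis genes (-0.07, -0.09 and -0.01). They were not for azurophil granule genes, at 0.64, 0.67 and 0.49 without DL1 and 0.48, 0.55 and 0.33 with DL1.

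The Notch target genes Hes1 and Nrarp rose with DL1 in control and in irradiated cultures. Hes1, a repressor switched on by Notch, was at 0.585, 0.807 and 0.520 FPKM in control, 0.540, 0.362 and 0.663 in irradiated, 3.03, 2.55 and 3.27 in control with DL1 and 2.58, 1.77 and 1.84 in irradiated with DL1 libraries. DL1 raised it by 1.27 in control (adjusted p = 1.46e-05) and by 1.004 in irradiated cultures (adjusted p = 5.27e-05), a difference of -0.27 ± 0.17 (interval -0.64 to 0.11). Nrarp, a feedback inhibitor of Notch, rose with DL1 by 0.57 and 0.45 (adjusted p = 0.00627 and 0.0161), with an interaction of -0.12 ± 0.18 (interval -0.52 to 0.28). Dtx1 was under the minimum for testing, at 0 to 0.0209 FPKM in the 6 libraries without and 0.259 to 0.563 in the 6 with DL1. Of the Notch targets and nuclear effectors, 18 of 28 were tested and 13 had a negative interaction (median -0.07). None passed, and 3 had an unadjusted p under 0.05, where 1256 of all 12025 genes tested did. DL1 raised 9 and lowered 2 in control cultures and raised 8 and lowered 3 in irradiated ones, where 13.9% and 24.4% of all genes tested rose.

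Among receptors and processing enzymes, 18 of 24 were tested and 12 were negative, all between -0.22 and 0.21, and none passed or had an unadjusted p under 0.05. DL1 lowered 7 and raised 1 of the 18 in control cultures and lowered 10 and raised 1 in irradiated ones, where 12.3% and 17% of all genes tested fell. The receptor gene Notch1 had -0.12 ± 0.13 (interval -0.40 to 0.16). Early T lineage genes had a median of -0.05 over 10 tested of 24. Tcf7, an early T lineage factor switched on by Notch, was at 4.71, 3.13 and 5.45 FPKM in control, 5.32, 2.93 and 3.30 in irradiated, 36.6, 29.5 and 50.8 in control with DL1 and 44.5, 25.7 and 28.6 in irradiated with DL1 libraries. DL1 raised it by 2.87 in control and 2.80 in irradiated cultures (adjusted p = 7.61e-06 and 5.22e-06). The interaction of -0.07 ± 0.35 had an interval from -0.84 to 0.70, so differences within that range were not excluded here. Gata3 had -0.15 ± 0.23 (interval -0.64 to 0.35).

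The ribosomal protein, glycolysis, sterol synthesis, DNA damage and repair and p53 target lists had median interactions between -0.04 and 0.11. Ribosomal protein genes had a median interaction of 0.01 with all 25 intervals within 0.5 log2 units of 0, and the same held for all 20 glycolysis, all 17 sterol synthesis and all 26 DNA damage and repair genes. The last list had 22 of 26 positive (median 0.11), with 14 that fell and 1 that rose without DL1 and 0 that changed with DL1. Of all genes tested 15.9% fell and 13.8% rose without DL1, and 3.14% changed with DL1. A count of 0 among 26 is close to that last share, and by sign 21 of the 26 were lower with DL1 (median -0.06). The 14 became 5 without control replicate 1 and 6 without control replicate 2 or irradiated replicate 1. Of 20 p53 targets 13 were negative (median -0.04). Cdkn1a, the p53-induced inhibitor of cyclin-dependent kinases, was at 50.8, 43.4 and 59.6 FPKM in control, 60.5, 46.7 and 64.2 in irradiated, 52.7, 60.4 and 51.5 in control with DL1 and 47.2, 48.0 and 52.9 in irradiated with DL1 libraries, and the groups overlapped in both arms (-0.30 ± 0.18, interval -0.68 to 0.08).

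In freshly sorted LSK cells, pooled from 3 mice per library and tabulated separately, Pf4 was at 23.6, 42.4 and 42.5 FPKM in control and 48.5, 99.4 and 67.7 in irradiated libraries, without overlap but also without passing (0.96 ± 0.28, adjusted p = 0.467, limma). For the other called genes tested there the adjusted p lay between 0.763 and 0.998, and Ap1m2 was below the minimum.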

How the data were processed

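RNA from 12 cultured LSK libraries (4 groups of 3) was analysed. The authors deposited FPKM values per gene name. The submitters' processing notes name TopHat 1.4.1, Cufflinks 1.3.0, Cuffdiff without a version, and hg19, a human build, for these mouse samples. The annotation and build behind the values, filters and further scaling are not given in the sources used here. Reads per gene are not known, so no counting intervals are given. Of the names, 88.48% were matched to mouse symbols of RefSeq GRCm38.p6. The DL1 column with its number after IR was read as the first irradiated replicate with DL1 by elimination, and 0 columns were unmapped.

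Values were taken as log2(FPKM + 1), so that fold changes of low genes are understated, and rows with a mean FPKM of at least 1 were fitted over all 12 libraries with limma 3.58.1 in R 4.3.3 (mean-variance trend, no covariate, Benjamini-Hochberg adjustment over the 12025 rows). On simulated data, 67.2%, 94.0% and 100.0% of genes with an interaction of 0.5, 1 and 2 log2 units were recovered, with 8 false calls among 12025 genes. There, 67, 67 and 66 genes carried these sizes, and noise was drawn independently per gene from limma's estimates of the spread. More true changes ease the adjusted threshold, so these shares are not the power of the test on the real data. Genes were named where they passed for the interaction, had one of the 4 smallest interaction p of a list, or belonged to a fixed set of 16. The members, the 35 lists and the set were chosen with earlier results of these data known. Alternatives were other pseudocounts, scales, filters and scaling, no trend, a replicate block and each library left out. The labels do not say that equal replicate numbers mark a shared mouse or day.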

Additional observations from a re-analysis of the deposited data

Results flagged for a closer look

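For 9 genes the difference between the irradiation changes with and without DL1 passed when tested itself (interaction in limma, adjusted p under 0.05). That count was 0 without control replicate 1, irradiated replicate 2 or irradiated replicate 2 with DL1. Aqp9, Sgsh and Ap1m2 each passed in 1 of the 12 fits that left out a library. Gas6 was near 0 with DL1 and did not pass in limma with a pseudocount of 0.1 (adjusted p = 0.282). The difference, with DL1 minus without DL1, was -1.89 for Pf4, -2.17 for Ppbp, -1.46 for Myl10, -0.81 for Cd63, -1.53 for Gas6, -0.58 for Sgsh, 1.13 for Hpgd, 0.46 for Aqp9 and 0.79 for Ap1m2, in log2 units. Means of irradiated and control cells moved in opposite directions in the 2 arms for Pf4, Ppbp, Hpgd and Ap1m2, of which Ap1m2 passed in both arms. The levels of megakaryocyte, macrophage and mast cell lists are given with the results, and their part was not tested. With DL1 the megakaryocyte list did not move with Pf4 and Ppbp, which were lower in irradiated libraries. Its summed FPKM were between 351 and 375 in control with DL1 and between 394 and 420 in irradiated with DL1 libraries.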

How the results depend on the processing

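The number of interaction calls (9) became 18 with a pseudocount of 5 (3 positive, 15 negative), 3 without a filter on low genes, where 19828 rows were tested, 5 with a minimum mean of 5 FPKM, and 3 with a replicate block. It stayed between 8 and 13 with a pseudocount of 0.1, a square root scale (2 positive, 11 negative), median-ratio scaling or no trend. Leaving out 1 library gave 0 to 192 for the interaction, 1886 to 4707 for irradiated against control without DL1 and 105 to 705 with DL1. The count with DL1 (378) was 230 on the square root scale and 222 without the filter. After median-ratio scaling the split of higher and lower calls was 2011 and 1480 for irradiation without DL1 (1660 and 1908 as deposited), 1273 and 1712 for DL1 in control (1675 and 1479) and 2046 and 2461 for DL1 in irradiated cultures (2931 and 2043). Equal replicate numbers showed no consistent pairing over all groups. Of 18 same-numbered pairs, 6 had a correlation of their deviations above 0.1 (-0.168 to 0.348). In 14 of 36 comparisons a library correlated best with its own number. The 3 pairs of irradiated libraries with and without DL1 were all above 0.1, at 0.230, 0.145 and 0.348. Whether these pairs share a mouse or day is not known. With the replicate block Pf4 and Myl10 passed (0.0263 each), and Ppbp (0.0507), Cd63, Gas6, Hpgd, Aqp9, Sgsh and Ap1m2 (0.053 to 0.0914) did not. Outside the fits that leave out a library, Pf4 and Myl10 had adjusted p up to 0.042 and 0.0513, Cd63 0.053, Ppbp 0.0603, Gas6 0.282, Hpgd 0.0755, Aqp9 0.0953, Sgsh 0.0914 and Ap1m2 0.0755. The cause of these differences was not tested. Of 2712 alternative values for 137 other named genes, 20 passed that had not, and no value that passed changed sign. FPKM do not give the reads behind a value, which limits what can be said of genes near 1 FPKM.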
